A study of Mus musculus with 5 samples.

Results

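The genes described here build and drive the motile cilium, the beating hair of ependymal cells that line the brain ventricles. The list held 37 genes for ciliary transcription factors, dynein arms, radial spokes and other parts of the axoneme, named by their function and not by any measured value. A transcript was measured for 34 of the 37, among 20178 transcripts in all. Dnah12, Lrrc23 and Cdhr4 had none and were not analysed here.

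RNA sequencing was run on 5 mouse cultures of strain ICR after 2 passages, with 1 library per condition. Of these, 4 were glial cultures from pups at postnatal day 5, which the labels name astrocyte progenitor cells: 3 from the ventral midbrain (VM) and 1 from the cortex (Ctx). The remaining library came from neural progenitor cells (NPCs) of the cortex at embryonic day 12. Of the VM libraries 1 is titled without any addition and no virus is given for it, 1 is titled C and 1 is titled NF. The labels contradict themselves on these last libraries, since the treatment entry of the library titled C names lentiviruses carrying Nurr1 and Foxa2, and that of the library titled NF names the mock virus. Titles were followed here, and every direction between the libraries titled NF and C would turn round under the treatment entries. Nurr1 (gene symbol Nr4a2) and Foxa2 are transcription factors of midbrain dopamine neurons, which the study's vectors drive from a CMV promoter that is not specific to any cell type, with an empty vector as control. VM glial cultures of this kind also hold microglia. A culture stands for itself alone here, so no spread between cultures can be given, and the intervals below hold the counting error of reads only.

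Assigned reads ranged from 20010818 to 22554835 per library. Nr4a2 had 81 reads in the VM library without virus, 53 in the library titled C, 183 in the library titled NF, 106 in the Ctx astrocytes and 93 in the Ctx NPCs. Foxa2 had 68, 15, 216, 1 and 0 reads in these libraries. Both transduced genes were thus highest in the library titled NF, against its treatment entry. The library titled C also stood apart in its cell type markers, given below beside the results, and comparisons with and without it are given. Of the 9 neural progenitor markers all had a level over 1 FPKM (fragments per kilobase of transcript, scaled to library depth) in the NPC library. In each other library 8 of the 9 did, so this count hardly sets the NPC library apart. Their summed level did, at 2360 FPKM in the NPCs. It was 558 FPKM in the VM library without virus, 665 and 500 FPKM in the libraries titled C and NF, and 688 FPKM in the Ctx astrocytes. The NPC library also held the highest summed levels of the 10 astrocyte and the 10 oligodendrocyte markers. These were 3493 and 3020 FPKM, against 1196 and 132 FPKM in the Ctx astrocytes.

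A motile cilium beats because rows of dynein motors slide the outer microtubule doublets of its axoneme against each other. The nexin-dynein regulatory complex and the radial spokes, which reach in to a central pair of microtubules, coordinate the beat, and tektins and other proteins line the inside of the doublets. Foxj1 is the transcription factor that switches on most genes of motile cilia, together with regulatory factor X (RFX) proteins, which bind ciliary promoters at a motif called the X-box. Cells with many cilia additionally use Mcidas and Ccno to multiply their centrioles into basal bodies. In the brain such cells are the ependyma and the choroid plexus epithelium, while neurons and most glia carry a single primary cilium that lacks these motor parts.

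Promoters were read first, since the X-box is the sequence through which RFX factors act on such genes. The RefSeq promoter table (GRCm38.p6) covers 250 bases before to 50 bases after a transcript start and held 33 of the 37 genes; Foxj1, Rsph1, Rsph4a and Tppp3 had no entry. The RFX core GTTGCC on either strand was in 20 of the 33 promoters (60.6%), against 14.1% of all 27025 genes in the table. A full X-box spelled GTTGCNNNGNNAC or GTTGCNNNNGNNAC on either strand, which can overlap the core, was in 14 of 33 (42.4%), against 3.59% of all genes. The forkhead motif GTAAACA, the kind that Foxj1-type factors bind, was in 2 of 33 (6.06%), those of Ak7 and Mlf1, against 4.05% of all genes. These are matches of letters, and binding was not measured. The spellings were chosen after several had been searched, so the shares are description only.

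The windows below show the nearest full X-box that ends before the start, with up to 25 bases on each side, cut at the start, for 6 genes that were at least 2-fold lower in the library titled C than in the VM library without virus. They are printed 5′ to 3′ on the strand of the gene, and capitals mark the full X-box. The first bases of these motifs lie between 15 and 51 bases before the start.
Dynlrb2, chr8:116504939-116505001, plus strand: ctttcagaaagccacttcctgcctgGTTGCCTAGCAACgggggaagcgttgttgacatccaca
Pifo, chr3:106001498-106001542, minus strand: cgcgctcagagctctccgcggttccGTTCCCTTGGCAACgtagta
Tekt4, chr17:25471529-25471589, plus strand: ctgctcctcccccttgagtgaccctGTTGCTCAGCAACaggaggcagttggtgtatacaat
Tekt1, chr11:72361883-72361922, minus strand: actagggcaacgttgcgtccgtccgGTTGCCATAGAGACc
Enkur, chr2:21205366-21205416, minus strand: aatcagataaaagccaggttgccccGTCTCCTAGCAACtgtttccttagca
Iqcg, chr16:33056187-33056230, minus strand: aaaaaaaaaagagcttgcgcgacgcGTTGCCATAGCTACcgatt

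For contrast, Tekt2 and Ccno carry an equally complete X-box, and neither gene reached a 2-fold difference between those libraries.
Tekt2, chr4:126325689-126325742, minus strand: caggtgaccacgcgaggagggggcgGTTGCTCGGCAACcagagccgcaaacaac
Ccno, chr13:112987558-112987621, plus strand: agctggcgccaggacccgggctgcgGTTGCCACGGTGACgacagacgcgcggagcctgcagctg
Of the genes at least 2-fold lower in the library titled C that also exceeded 1 FPKM in at least 1 of the 2 libraries, 8 of the 17 with a promoter in the table held a full X-box. Of the other measured genes 5 of 13 did, among them Dnah9 and Spag16, which were over 2-fold lower but under that level. The promoter with the largest distance was that of Ccno, whose motif began 219 bases before the start.

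**Figure D1:**
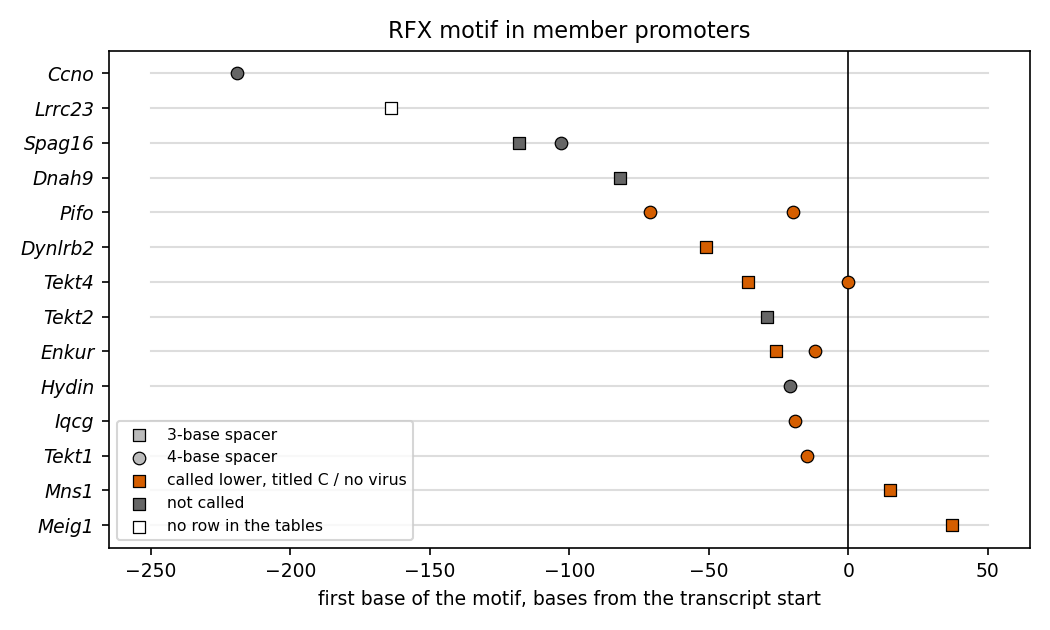
First base of each full X-box (horizontal axis, bases from the transcript start at 0) in the 14 promoters that hold one, with 1 line per gene; squares have a 3-base and circles a 4-base spacer, and orange marks genes at least 2-fold lower in the library titled C than in the VM library without virus and over 1 FPKM in at least 1 of them. Motifs more than 82 bases before the start are seen in Ccno, Lrrc23 and Spag16, and orange and grey genes are mixed.

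Levels per transcript length differed widely between the genes. In the VM library without virus Foxj1 stood at 119 FPKM and Tppp3, a tubulin-binding protein abundant in ciliated cells, at 122 FPKM, while the median of the 34 genes was 2.67 FPKM. Foxj1 alone took 40.4% of the reads of the list there and 26.9 to 53.5% over the 5 libraries. Mcidas was at the limit of detection with 2, 1, 1, 0 and 9 reads in the VM library without virus, the libraries titled C and NF, the Ctx astrocytes and the NPCs, where 3 reads were taken as the floor. Long transcripts were scarce: of the 6 over 7000 bases, among them the dynein heavy chains Dnah5, Dnah9 and Dnah11 and the central pair protein Hydin, 1 (Rfx3) exceeded 1 FPKM in the VM library without virus, against 25 of the 28 shorter ones. Over all transcripts, 77.9% of the long and 60.0% of the shorter ones exceeded it.

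The summed level of the 34 genes was 397 FPKM in the VM library without virus, 105 FPKM in the library titled C, 337 FPKM in the library titled NF, 426 FPKM in the Ctx astrocytes and 163 FPKM in the NPCs. The library titled C was the lowest and the Ctx astrocytes the highest. Without Foxj1 and Tppp3 the sums were 157, 46.7, 130, 124 and 89.3 FPKM in the same order, so that the VM library without virus was then the highest. The number of genes over 1 FPKM was 26, 15, 23, 22 and 19. In bulk RNA of this kind, fewer ciliated cells and less ciliary RNA per cell cannot be told apart.

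**Figure D2:**
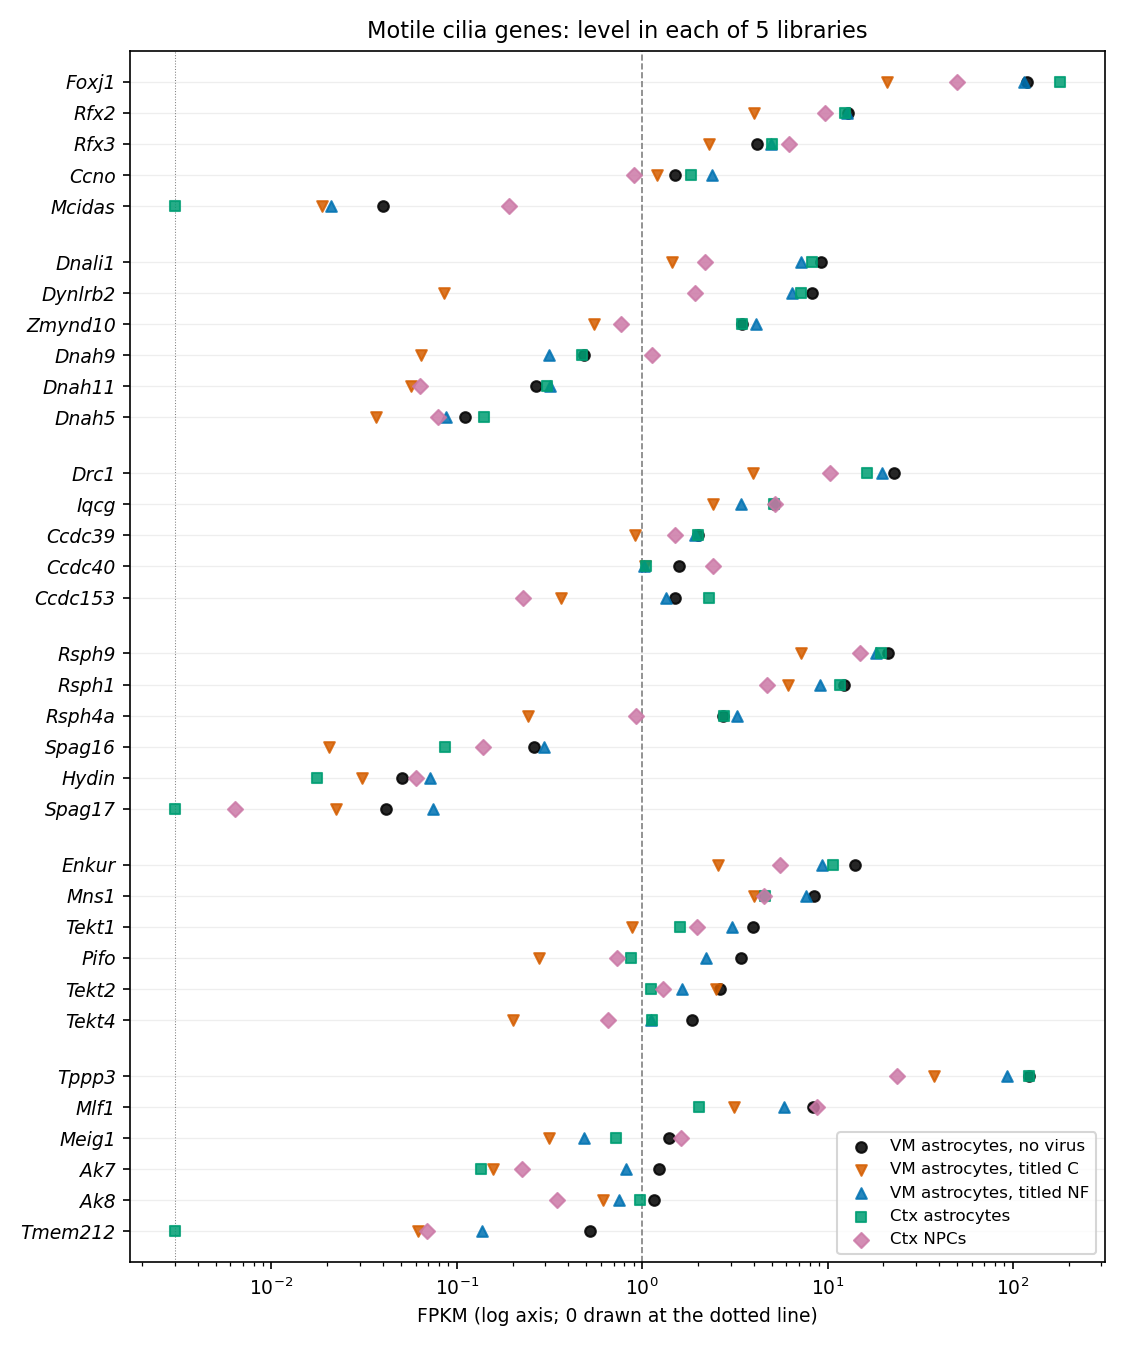
FPKM of each of the 34 genes (log axis) in the 5 libraries, 1 point per library and gene, grouped by role; a value of 0 is drawn at the dotted line and the dashed line marks 1 FPKM. Orange triangles (library titled C) lie left of the black circles (VM, no virus) in every row, most widely for Dynlrb2, Spag16, Pifo and Rsph4a.

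Between the library titled C and the VM library without virus, the ciliary genes lay on 1 side. All 34 were lower in the library titled C, and 26 of 34 were at least 2-fold lower with no filter on level, against 13.7% of the 16747 transcripts with a read in either library. Ratios are log2 of reads over the library total with 0.5 reads added, and a gene is called where it differs at least 2-fold and exceeds 1 FPKM in at least 1 of the 2 libraries. By that rule 21 genes were called lower, none higher and 5 not, against a background of 8.48% of 12703 transcripts called lower and 7.30% higher. A gene that met the level only in the VM library without virus had to be lower in the library titled C, so the count was also taken on a level averaged over all 5 libraries, where 18 of 22 were at least 2-fold lower and none higher, against 7.98% and 6.39% of transcripts. The median log2 ratio over the 34 genes was -1.84, against -0.01 over the transcripts that passed the level.

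The library titled NF gave the opposite picture against the library titled C. With no filter 23 of the 34 genes were at least 2-fold higher in the library titled NF and none lower, against 14.3% of transcripts higher and 14.7% lower. By the call rule 16 were higher and 7 not called, with 9.53% of transcripts called higher and 9.73% lower. On the averaged level 15 of 22 were higher and none lower, against 9.05% and 8.75%. The median log2 ratio of the 34 genes was 1.48. Both comparisons share the library titled C, so they are not independent of each other. Likewise the comparisons of the libraries titled C and NF and of the Ctx astrocytes with the VM library without virus all share that library.

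Set against the VM library without virus, the library titled NF differed little at the 2-fold limit. Meig1 was the 1 gene called lower and none was called higher, against 0.668% of transcripts lower and 0.322% higher. With no filter 2 were lower and none higher, against 6.13% and 4.56%, and on the averaged level there was none of 22 in either direction, against 0.687% and 0.344%. Ratios of the 34 genes ranged from -1.71 for Tmem212, at 2 against 8 reads, to 0.80 for Spag17, at 12 against 7 reads. The median was -0.36, against -0.05 over the transcripts that passed the level, and 26 of the 34 lay below 0. At a 1.5-fold limit 9 of 26 genes passing the level were lower and 1 higher, against 4.14% and 2.57% of transcripts. Among the 3 VM libraries the library titled C was lowest for 32 of the 34 genes by reads scaled to depth, and the exceptions were Tekt2 and Ccdc40, both lowest in the library titled NF.

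**Figure D3:**
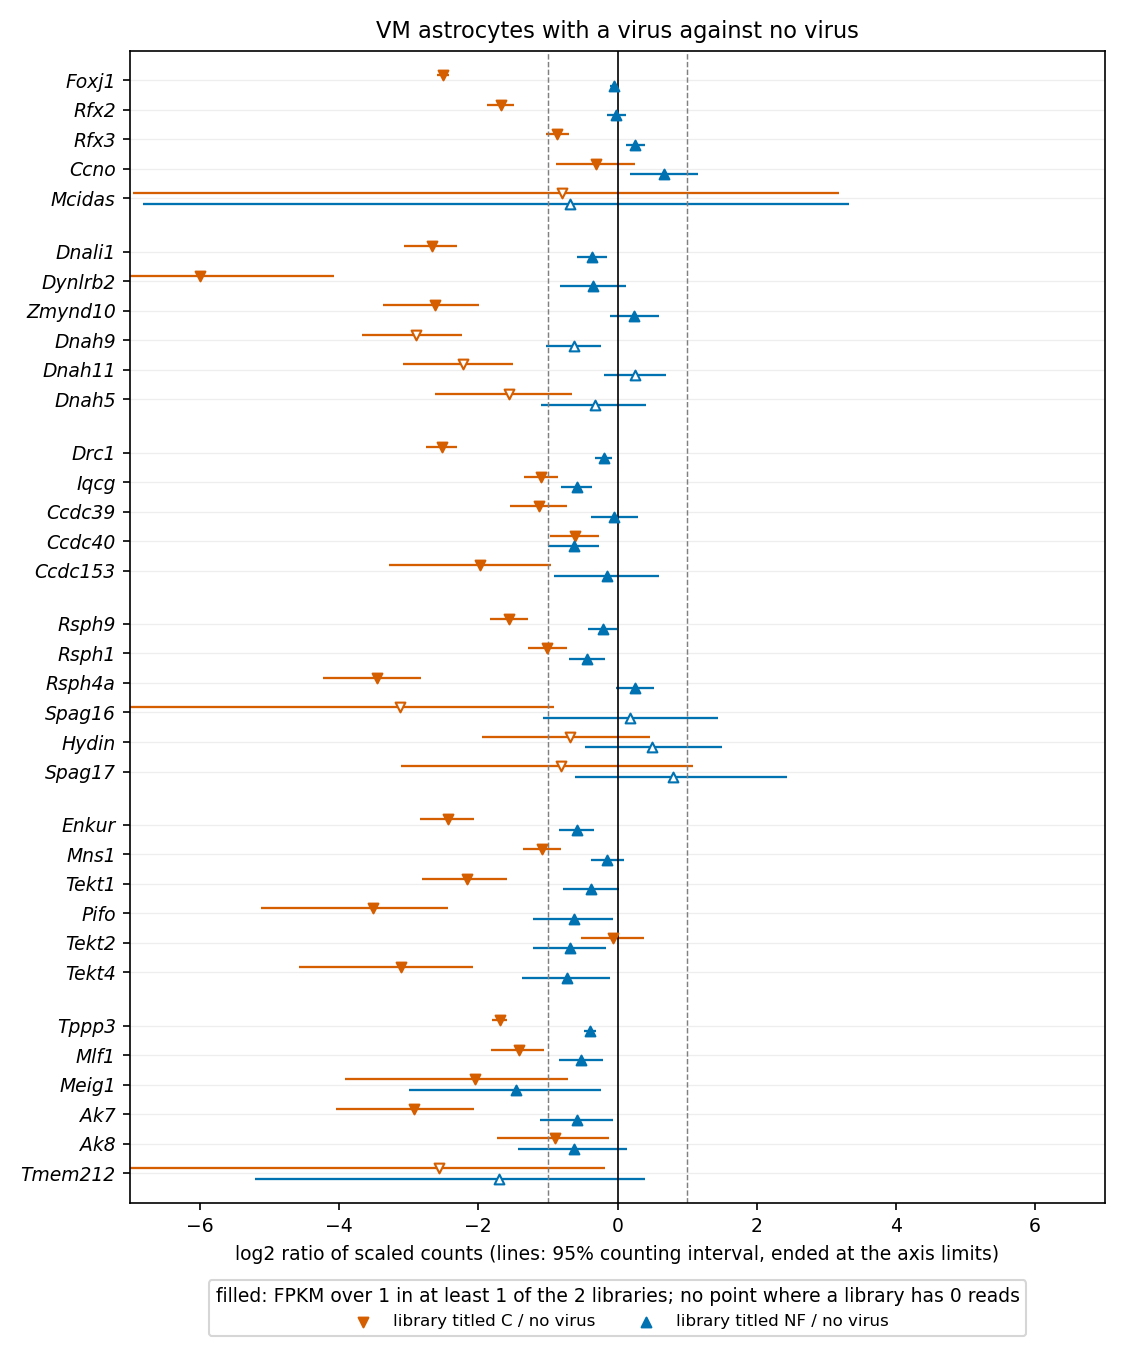
Log2 ratio of scaled reads for the 34 genes in the library titled C (orange) and the library titled NF (blue), each over the VM library without virus, with 95% counting intervals; filled points exceed 1 FPKM in at least 1 of the 2 libraries and dashed lines mark 2-fold. Orange points spread from -6.00 to -0.07, and blue points stay within the 2-fold lines except Meig1 and Tmem212.

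Markers of other cell types moved with the library titled C as well. Over all transcripts 8.48% were called lower in it than in the VM library without virus and 7.30% higher. These shares stand beside each count by list for this comparison below. Of the 13 measured microglial markers, 12 passed the level and 11 were called higher than in the VM library without virus, with a summed level of 783 against 212 FPKM; it was 151 in the library titled NF, 85.2 in the Ctx astrocytes and 14.4 FPKM in the NPCs, where Trem2 had 0 reads. Csf1r, the receptor that microglia need to survive, had 527 reads in the VM library without virus, 3199 in the library titled C and 326 in the library titled NF. Of the 10 oligodendrocyte markers 7 of the 8 passing were called higher, with sums of 113, 171 and 90.8 FPKM in the VM library without virus and the libraries titled C and NF. In the VM library without virus 10 microglial and 5 oligodendrocyte markers exceeded 1 FPKM, and the others passing could only be higher. Opalin was at 0 reads in the VM library without virus and the library titled NF. None of the 10 astrocyte markers was at 0 in any library, and their sums were 567, 466 and 472 FPKM. Aldh1l1, an astrocyte enzyme of folate metabolism, was called lower in the library titled C and S100b higher, and Aldh1l1 had 7446, 2249 and 6255 reads in the 3 VM libraries. Between the libraries titled NF and C, Aldh1l1 was called higher in the former and Gfap and S100b lower.

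Choroid plexus and several other marker lists had genes lower in the library titled C. All 7 choroid plexus genes that passed the level were called lower, out of 12 on that list, with sums of 91.1, 16.3 and 77.2 FPKM in the VM library without virus and the libraries titled C and NF. In the library titled C 3 of them exceeded 1 FPKM. A gene over it in the VM library without virus alone could only be lower. Ttr, the transthyretin that the choroid plexus secretes, had 953, 106 and 683 reads in the 3 VM libraries. Ependymal genes outside the cilium gave 4 lower and 1 higher of 7 passing: Cd24a, a surface protein of ependyma, had 7085, 3278 and 5579 reads, and S100b, which astrocytes also make, had 449, 1093 and 330. Summed levels of this ependymal list were 3308, 2960 and 2814 FPKM, lowest in the library titled NF. Gene by gene the picture differed. Between the libraries titled NF and C, Prom1, Celsr2 and Mia were called higher in the former and S100b lower, with a list median of 0.92. Against the VM library without virus, no gene of the list was called in the library titled NF. Of the 4 tanycyte markers, Rax and Scn7a were called lower in the library titled C, and Rax had 169, 5 and 135 reads. Of the 4, 2 exceeded 1 FPKM in the library titled C, and the others could only be lower. The tanycyte sums were 119, 84.9 and 89.4 FPKM. Endothelial and mural markers gave 3 lower (Kdr, Rgs5 and Acta2) and 1 higher (Cdh5) of 4 passing, with sums of 471, 205 and 408 FPKM, and the same 3 were called higher in the library titled NF than in the library titled C. Of these 4, 2 exceeded 1 FPKM in the library titled C. The others could only be lower there, and only higher in the library titled NF against it. Meningeal fibroblast markers gave 2 lower of 7, Col1a1 and Ogn, with sums of 486, 316 and 508 FPKM. Of the neuronal markers Tubb3 and Snap25 were called higher and Slc17a7 lower of 7 passing, and of the progenitor markers Sox1 and Prom1 lower of 8. Neuronal markers over 1 FPKM numbered 5 in the VM library without virus and 6 in the library titled C, so the direction of some was fixed. The 10 proliferation markers gave no call, with a median of -0.07. The part of any of these cell types in the ciliary result was not tested.

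Genes of the cilium outside the list differed by kind. Of 68 further axonemal genes 38 passed the level and 26 were called lower in the library titled C, with none higher and a median of -1.73. In the library titled C 25 of the 38 exceeded 1 FPKM, and the others could only be lower. Cfap100, a protein of the inner dynein arm region, had 1085, 92 and 1152 reads in the VM library without virus and the libraries titled C and NF, and Nme5, a radial spoke protein, had 510, 63 and 398. Of 46 genes of the primary cilium and of intraflagellar transport, which carries material along any cilium, 45 passed and 2 were called lower, Dync2li1 and Bbs2, with a median of -0.37. Of 18 regulators of multiciliated cells and centriole amplification 11 passed and none was called, with a median of -0.02. The others were under the level and not counted. Among these, Gmnc had 40 reads in the VM library without virus and 5 in the library titled C, and Trp73 had 34 and 4. Myb had 5 and 5 and Deup1 3 and 4, and Foxn4, Ccdc78 and Cdc20b had at most 4 in either. The same lists in the library titled NF against the library titled C gave 23 of 36 axonemal genes higher, 3 of 45 primary cilium genes higher and 0 of 11 regulators called. Here the axonemal genes under 1 FPKM in the library titled C could only be higher. Against the VM library without virus, the library titled NF gave 1 axonemal gene lower, Cfap52, and no primary cilium gene or regulator called.

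**Figure D4:**
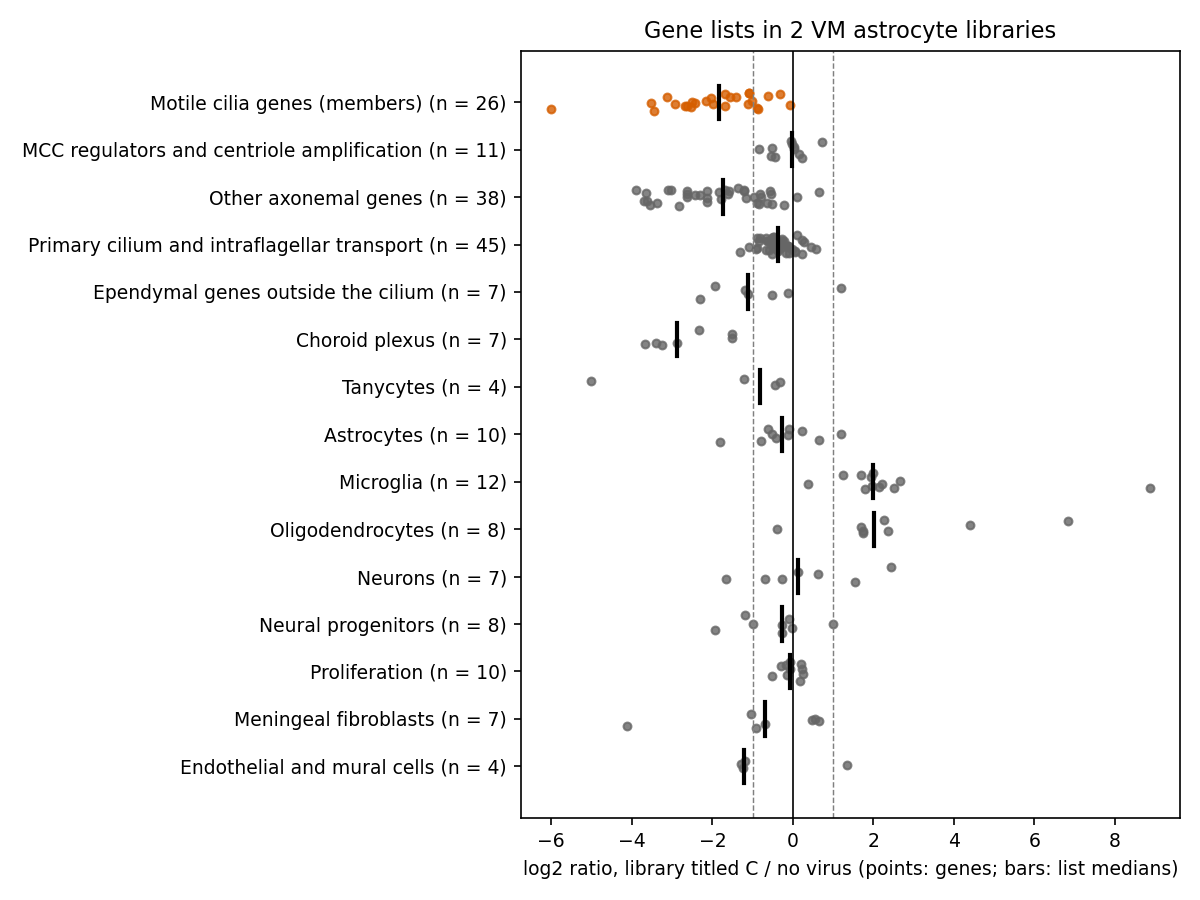
Log2 ratio of the library titled C over the VM library without virus (horizontal axis) for every gene that exceeds 1 FPKM in at least 1 of them, by list, with vertical bars at list medians, n the genes shown and dashed lines at 2-fold. The ciliary genes, the further axonemal genes and the choroid plexus genes have medians of -1.84, -1.73 and -2.89, the primary cilium genes -0.37 and the microglial genes 1.98; the oligodendrocyte point at the far right is Opalin, whose value depends on the 0.5 reads added.

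Of the transcription factors and multiciliation genes, Foxj1 and Rfx2 were called lower in the library titled C. Foxj1 had 6527 reads in the VM library without virus, 1214 in the library titled C, 5996 in the library titled NF, 9981 in the Ctx astrocytes and 2573 in the NPCs. The library titled C was the lowest, and the other VM libraries were alike. Its log2 ratio of C over no virus was -2.51 (95% interval -2.60 to -2.42), or 5.69-fold lower, and that of NF over no virus -0.06 (-0.11 to -0.00). Rfx2, an RFX factor, gave 925, 306, 872, 902 and 654 reads and a ratio of -1.68 (-1.87 to -1.49) in the library titled C. Rfx3, the RFX factor shared with primary cilia, had 813, 473, 925, 983 and 1141 reads. It was not called at -0.86 (-1.03 to -0.70) for C over no virus, and was called higher at 1.12 (0.96 to 1.28) for NF over C. Ccno, the cyclin of basal body production, had 60, 51, 91, 74 and 34 reads, with -0.31 (-0.88 to 0.25) for C over no virus and 0.66 (0.18 to 1.16) for NF over no virus.

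All 3 dynein arm genes that passed the level were called lower in the library titled C, against 8.48% of all transcripts. That share stands beside each count by role below too. Dynlrb2 and Zmynd10 passed through the VM library without virus alone and could only be lower. Dynlrb2, a dynein light chain, had 91 reads in the VM library without virus, 1 in the library titled C, 68 in the library titled NF, 80 in the Ctx astrocytes and 20 in the NPCs. With a single read in the library titled C the ratio of -6.00 had a wide interval (-11.91 to -4.08). Dnali1, a light intermediate chain of the inner arm, gave 412, 68, 305, 368 and 91 reads and a ratio of -2.67 (-3.07 to -2.31). Zmynd10, which helps to assemble the arms in the cytoplasm, had 130, 22, 147, 131 and 27 reads and a ratio of -2.62 (-3.37 to -1.99). An unstranded count could mix Zmynd10 with Gm34106, which overlaps 10.1% of its exon bases on the other strand. The listed heavy chains, which are motors themselves, stayed under 1 FPKM in all VM libraries, with 143 and 20 reads for Dnah9, 81 and 18 for Dnah11 and 37 and 13 for Dnah5 in the VM library without virus and the library titled C.

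The regulatory complex and its ruler proteins gave 4 of 5 genes called lower in the library titled C. Of these, Ccdc39 and Ccdc153 passed the level through the VM library without virus alone and could only be lower. Drc1, which anchors the nexin-dynein complex, had 1103 reads in the VM library without virus, 203 in the library titled C, 917 in the library titled NF, 801 in the Ctx astrocytes and 472 in the NPCs. Its ratio of -2.52 (-2.75 to -2.31) was close to that of Foxj1. Iqcg (Drc9), of the same complex, had 443, 219, 281, 444 and 418 reads and a ratio of -1.10 (-1.34 to -0.86). Ccdc39 had 155, 75, 143, 155 and 109 reads and Ccdc40 169, 117, 104, 112 and 240. Both form the ruler that spaces the arms along the doublet, and their ratios for C over no virus were -1.12 (-1.55 to -0.72) and -0.61 (-0.97 to -0.26), with intervals that overlap. Ccdc153 had 35, 9, 30, 54 and 5 reads. Exon bases overlap a gene on the other strand for 48.1% of Iqcg (Lrch3) and 16.9% of Ccdc39 (Ttc14), and reads of such pairs cannot be told apart where counting ignores strand.

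Radial spoke genes passed the level in 3 cases and were called lower in all 3. The direction of Rsph4a was fixed, since it passed through the VM library without virus alone. Rsph4a, of the spoke head, had 212 reads in the VM library without virus, 20 in the library titled C, 240 in the library titled NF, 217 in the Ctx astrocytes and 68 in the NPCs. Its ratios were -3.46 (-4.23 to -2.82) for C over no virus and 3.70 (3.07 to 4.47) for NF over C, 13.0-fold. The other head proteins differed less: Rsph9 had 425, 153, 350, 394 and 282 reads with -1.55 (-1.83 to -1.29), and Rsph1 had 308, 162, 217, 292 and 111 reads with -1.01 (-1.29 to -0.73). The intervals of Rsph4a and of these neighbours do not overlap. Under the 3 other library scalings the count of genes called lower in the library titled C was 20 in place of 21, since Rsph1 then stayed under 2-fold. The central pair genes Spag16, Spag17 and Hydin had 4 to 23 reads in the VM libraries without virus and titled NF and of the Ctx astrocytes, except Spag17 with 0 in the Ctx astrocytes.

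Of the tektins and other inner microtubule proteins, 5 of 6 were called lower in the library titled C. Among them Tekt1, Tekt4 and Pifo passed the level through the VM library without virus alone and could only be lower. Pifo (Pitchfork), a ciliary protein, had 70 reads in the VM library without virus, 6 in the library titled C, 43 in the library titled NF, 18 in the Ctx astrocytes and 14 in the NPCs. Tekt4, one of the tektin filaments inside the doublet, had 61, 7, 35, 37 and 20 reads, and Tekt1 had 124, 29, 91, 50 and 58. Their ratios for C over no virus were -3.52 (-5.12 to -2.43), -3.12 (-4.58 to -2.08) and -2.16 (-2.82 to -1.59). Tekt2 went apart from the other tektins, with 84, 85, 50, 36 and 39 reads and a ratio of -0.07 (-0.52 to 0.39), the smallest of the list. Gm12945 overlaps 20.8% of its exon bases on the other strand. Enkur had 359, 70, 228, 275 and 134 reads with -2.43 (-2.83 to -2.07). Mns1 had 328, 164, 283, 180 and 165 reads with -1.08 (-1.36 to -0.81), and 53.0% of its exon bases lie under Tex9.

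The remaining genes of ciliated cells were called lower in 4 of 5 cases. Here Ak7, Ak8 and Meig1 passed the level through the VM library without virus alone and could only be lower. Tppp3 had 2666 reads in the VM library without virus, 873 in the library titled C, 1937 in the library titled NF, 2693 in the Ctx astrocytes and 489 in the NPCs. Its ratio of -1.69 (-1.80 to -1.58) for C over no virus was smaller in size than that of Foxj1, with intervals apart. The adenylate kinase Ak7 had 82, 11, 52, 9 and 14 reads and a ratio of -2.92 (-4.04 to -2.07), and its relative Ak8 had 39, 22, 24, 33 and 11 with -0.89 (-1.73 to -0.12). Mlf1 had 208, 82, 138, 51 and 206 reads and Meig1 had 21, 5, 7, 11 and 23. Meig1 was the gene called in the library titled NF over no virus, at -1.46 (-3.00 to -0.23), and rests on 7 against 21 reads.

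The Ctx astrocytes were set against the VM library without virus. With 1 library each, region and culture differ together and cannot be told apart. The 2 cultures held most of the list at like levels: 5 of 26 genes passing the level were called lower in the cortex and none higher, against 9.89% of transcripts lower and 4.49% higher. With no filter 10 of 34 were at least 2-fold lower and none higher, against 16.6% and 7.95%, and on the averaged level 4 of 22 were lower and none higher, against 9.70% and 4.27%. The median of 33 genes was -0.19, with genes at 0 reads set at the 3-read floor and Mcidas left out. The called genes were Ak7 at -3.13 (-4.38 to -2.20), Mlf1 at -2.03 (-2.51 to -1.59), Pifo at -1.94 (-2.80 to -1.20), Tekt1 at -1.31 (-1.82 to -0.83) and Tekt2 at -1.22 (-1.84 to -0.65). They belong to the inner microtubule proteins and the other ciliated cell genes, and no transcription factor, dynein arm, regulatory complex or spoke gene was called. Ak7 and Pifo passed the level through the VM library without virus alone and could only be lower. Under the level in both libraries, Spag16 at -1.48 (-3.68 to 0.13) and Hydin at -1.44 (-3.14 to -0.10), of the spokes and central pair, were over 2-fold lower too. The split by role thus rests partly on the level rule. Foxj1 was higher in the cortex by 0.60 (0.56 to 0.65), 1.52-fold and under the 2-fold rule, while Rfx2 was at -0.05 (-0.18 to 0.09), Dnali1 at -0.17 (-0.38 to 0.03), Zmynd10 at 0.00 (-0.36 to 0.36) and Rsph4a at 0.02 (-0.26 to 0.30). Tmem212, a predicted membrane protein, had 0 reads in the cortex against 8, and Spag17 had 0 against 7. With the 0 set at the 3-read floor of the cortical library they were 2.68-fold and 2.35-fold lower. Their counting intervals reached up to -0.78 and -0.54, so a difference under 2-fold lay within both.

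Other cell types also differed between these cultures. Choroid plexus genes summed to 10.7 FPKM in the Ctx astrocytes against 91.1, with Ttr, Kcnj13, Otx2 and Prlr at 0 reads and 6 of 7 called lower. All 4 tanycyte genes were called lower, with sums of 13.5 against 119 FPKM and Rax at 0. In the Ctx astrocytes 2 choroid plexus and 2 tanycyte genes exceeded 1 FPKM, and the others passing could only be lower. Of the astrocyte markers 6 of 10 were called higher, with sums of 1196 against 567 FPKM, 9 of the 10 microglial genes passing were lower, and all 10 proliferation genes were lower with a median of -2.05. Of these, 9 microglial and 8 proliferation genes exceeded 1 FPKM in the Ctx astrocytes, and the others passing could only be lower. The part of these cell types in the values of Foxj1, Ak7 and the others was not tested. Of the further axonemal genes 10 of 38 were called lower and 1, Cfap100, higher, at 1085 against 2230 reads. In the Ctx astrocytes 33 of the 38 exceeded 1 FPKM, and the others could only be lower. No primary cilium gene was called, and of the regulators Plk4 and Stil, of centriole duplication, were called lower. Stil was under 1 FPKM in the Ctx astrocytes and could only be lower.

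**Figure D5:**
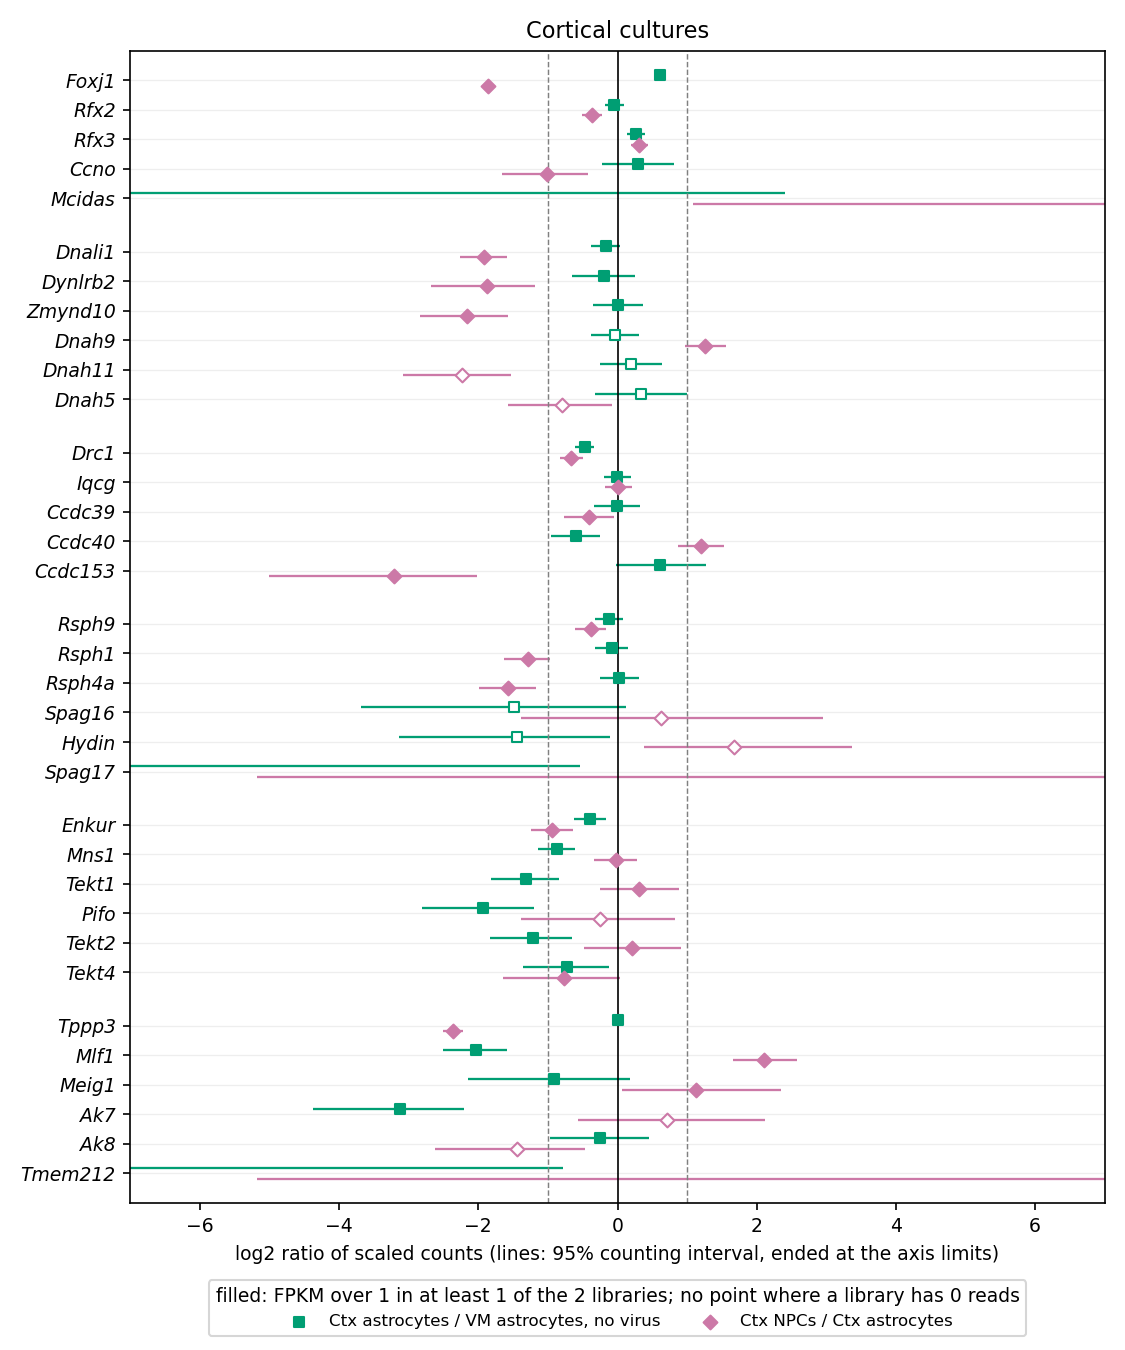
Log2 ratio of scaled reads for the 34 genes in Ctx astrocytes over the VM library without virus (green) and in Ctx NPCs over Ctx astrocytes (pink), with 95% counting intervals cut at the axis limits; filled points exceed 1 FPKM in at least 1 of the 2 libraries, dashed lines mark 2-fold and genes with 0 reads in a library have no point. Filled green points gather near 0 down to the spoke genes and several lie lower in the tektin group. Open green points of Spag16 and Hydin, among the spoke and central pair genes, lie beyond the 2-fold line. Pink points spread from -3.21 to 2.10.

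In the NPCs against the Ctx astrocytes the genes went both ways. By the call rule 9 were lower, 4 higher and 11 not, against 17.9% of transcripts lower and 20.1% higher, and with no filter 11 of 34 were lower and 8 higher against 24.3% and 21.4%. On the averaged level 9 of 22 were lower and 2 higher, against 19.2% and 18.3%. The median over 32 genes with the 3-read floor was -0.39. Scaling matters here, since edgeR's TMM moved the median ratio of all transcripts by -0.18, and 10 of the genes were then lower and 3 higher, with Enkur added to the lower ones and Meig1 lost from the higher ones.

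The genes lower in the NPCs included Foxj1 at -1.86 (-1.92 to -1.79), or 3.62-fold, Tppp3 at -2.36 (-2.50 to -2.22), Ccdc153 at -3.21 (-5.01 to -2.02) and Zmynd10 at -2.16 (-2.83 to -1.57). Dnali1 was at -1.91 (-2.26 to -1.58), Dynlrb2 at -1.88 (-2.69 to -1.18), Rsph4a at -1.57 (-1.99 to -1.18), Rsph1 at -1.29 (-1.62 to -0.98) and Ccno at -1.01 (-1.65 to -0.42). Tppp3 apart, these are factors, dynein arm, spoke and regulatory complex genes, and no tektin was among them. Of these, Ccdc153, Zmynd10, Rsph4a and Ccno passed the level through the Ctx astrocytes alone and could only be lower, so the split by role rests partly on the level rule. The genes higher in the NPCs were Mlf1 at 2.10 (1.66 to 2.59), Dnah9 at 1.26 (0.97 to 1.56), Ccdc40 at 1.20 (0.87 to 1.54) and Meig1 at 1.13 (0.07 to 2.35). Dnah9 and Meig1 passed through the NPCs alone and could only be higher. Dnah9, a heavy chain of the outer arm, had 314 reads in the NPCs and 140 in the Ctx astrocytes, and stood at 1.13 FPKM in the NPCs. Rfx3 was close at 0.31 (0.19 to 0.44) and Rfx2 at -0.36 (-0.51 to -0.22). Mcidas had 9 reads in the NPCs and 0 in the Ctx astrocytes, 3.21-fold higher with the 0 set at the 3-read floor. Its counting interval began at 1.08.

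Beside these values, 17 of 35 further axonemal genes were called lower in the NPCs and 3 higher, with a median of -0.87, and 4 of 46 primary cilium genes lower and 2 higher, with a median of -0.08. Over 1 FPKM were 33 of the further axonemal genes in the Ctx astrocytes and 29 in the NPCs, so the direction of some was fixed. Of the regulators 5 of 12 were called higher: Trp73, Rfx4, Plk4, Sass6 and Stil. Trp73 and Stil were under 1 FPKM in the Ctx astrocytes and could only be higher. All 9 oligodendrocyte genes passing were higher, with a median of 6.67, as were 7 of 10 neuronal genes and 8 of 10 proliferation genes, and all 9 microglial genes passing were lower. Over all transcripts 20.1% were called higher and 17.9% lower. In the Ctx astrocytes 4 oligodendrocyte, 6 neuronal and 8 proliferation genes exceeded 1 FPKM, and the others passing could only be higher. In the NPCs 1 microglial gene exceeded it, and the others passing could only be lower. The part of these other cell types in the ciliary values was not tested. Age, cell type and culture differ together between these libraries and cannot be told apart.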

How the data were processed

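The deposited tables hold, per RefSeq transcript and library, read counts and the FPKM the authors computed from them; the FPKM were recomputed from the counts, length and total with a largest relative difference of 4.09e-05. The submitters' processing notes name bcl2fastq 1.8.4, STAR, HTSeq, DESeq and mm9. The study's methods name quality trimming, Bowtie, STAR on GRCm38/mm10 and HTSeq on RefSeq exons, so the build is not settled, and only promoter windows carry coordinates, from RefSeq GRCm38.p6. Whether counting used strand is not given in the sources used here.

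Of 20178 transcripts, 19997 were paired with a symbol through the RefSeq table and 96 through GENCODE M21; 85 were not. Overlap with genes on the other strand was read from GENCODE M21 exons. Library depth was 20010818 to 22554835 reads, so 3 reads, taken as the floor, are 0.133 to 0.150 CPM; intervals and floors cover counting error only.

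With 1 library per group no test was possible. Log2 ratios are reads over library total with 0.5 reads added, with exact Clopper-Pearson 95% intervals, and calls need 2-fold and FPKM over 1 in at least 1 of the 2 libraries. Scaling by edgeR 4.0.16 (TMM), DESeq2 1.42.0 (size factors) and the upper quartile, 5 reads added, other level filters and 1.5-fold and 3-fold limits were alternatives. Python 3.11.15 with pandas 2.3.3 and scipy 1.17.1 was used, and the ratios, intervals and calls were tested on simulated data.

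The genes, lists and motifs were chosen with earlier results of these data known, and the motif spellings after several had been searched. Values in every library are given for the 5 factors and, in each comparison, for up to 10 called genes with the largest ratios; others named with values were chosen to complete their role group. From other lists at most the 4 most abundant genes were to be named, plus called genes needed to explain a count; the read counts of Csf1r were added after their values were seen.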

Additional observations from a re-analysis of the deposited data

How the results depend on the processing

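Of the alternative values of the counts and medians over the ciliary genes, 106 stayed within the set limits and 19 moved; of those for single genes 195 stayed within their counting interval and 17 moved, and no called ratio changed sign. The limits were a count within 1.5 times and a median within the order-statistic interval of the genes.

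Requiring FPKM over 1 in both libraries left fewer genes: 11 lower for C over no virus, 8 higher for NF over C, 0 lower for NF over no virus, 3 lower for Ctx over VM, and 5 lower and 2 higher for NPC over Ctx. The shares of transcripts in the same order were 5.83%, 7.00%, 0.323%, 6.47%, 13.2% and 17.5%. With no filter on level 2 were lower for NF over no virus, 10 lower for Ctx over VM and 8 higher for NPC over Ctx. The mean level over the 5 libraries, added after the data were seen, gave 0 lower for NF over no virus and 2 higher for NPC over Ctx. A 1.5-fold limit gave 1 lower for NF over C, against 19.1% of transcripts. For NF over no virus it gave 9 lower and 1 higher, against 4.14% and 2.57%. For Ctx over VM it gave 9 lower and 2 higher, against 17.0% and 10.4%. A 3-fold limit gave 0 lower for NF over no virus, 3 lower for Ctx over VM and 1 higher for NPC over Ctx. Against these stood 0.0966%, 5.86% and 10.2% of transcripts. The level filters change which genes are admitted, and the fold limits change which of those are counted.

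Among single genes, 5 reads added moved Dynlrb2 to -4.05 for C over no virus and 3.69 for NF over C. TMM put Foxj1 at 0.67 for Ctx over VM and -2.04 for NPC over Ctx. No replicate could be left out and no paired analysis was possible because each condition has 1 library. Depth limits Mcidas, Spag16, Spag17, Tmem212 and Meig1 most.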

Other observations

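A few genes upstream of multiciliation were under 1 FPKM in the VM cultures and so entered no count of calls between the VM libraries; they were chosen after their values were seen. Gmnc, which starts the multiciliated program, had 40 reads in the VM library without virus, 5 in the library titled C, 31 in the library titled NF, 4 in the Ctx astrocytes and 5 in the NPCs. Trp73, a transcription factor that acts upstream of Foxj1, had 34, 4, 30, 33 and 111 reads in these libraries. Gmnc was thus low in the Ctx astrocytes, where Foxj1 was highest, and Trp73 was not. Myb had 5, 5, 4, 8 and 72 reads and Deup1, of the deuterosomes that build extra centrioles, had 3, 4, 6, 2 and 19, both highest in the NPCs. Separately, Otx2, a homeobox factor of the choroid plexus and of the embryonic midbrain, had 416, 41, 498, 0 and 193 reads.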
